A study of Saccharomyces cerevisiae with 72 samples.

Results

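ATR2, PUT4, YPR015C, GUP2, AMF1 and YDL085C-A are 6 budding yeast genes whose response to methyl methanesulfonate (MMS), a DNA alkylating agent, was lower in cells lacking the repressor Crt1 than in wild type. They were taken by symbol from the 5594 genes of one table of arrays, and all 6 were also found among the 5592 genes of a second table. Each had 1 probe in each table. They were chosen by their values on the crt1 and wild-type arrays, so the comparison of crt1 with wild type is given as a description, and calls in it support nothing about them. The tests use the other strains.

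Each of 72 arrays carried RNA of one strain treated with MMS in one dye channel and RNA of the same strain without MMS in the other. All strains share the BY4741 background, an auxotrophic laboratory strain, and cultures were divided into a treated and an untreated portion for 1 h. The kinase set held 52 arrays of poly(A)-enriched RNA from 13 strains: the deletion strain crt1 (the gene is listed as RFX1), the single deletions mec1, rad53, dun1, sml1, tel1, chk1 and ste11, 4 strains with both genes deleted (tel1mec1, chk1rad53, dun1rad53, chk1dun1), and wild type. The factor set held 20 arrays of total RNA from hap1, hap4, sut1, rcs1 (AFT1) and yap7, 5 strains lacking a transcription factor, on another array design and without a wild type. The labels give 0.03% MMS in the growth text for every array and 0.033% in the treatment text of the kinase set. Each strain had 4 arrays, which are 2 replicates with the dyes swapped. It is not given whether SML1 was deleted as well in mec1 and rad53, nor whether the 2 replicates came from separate cultures. The p-values therefore measure only the spread between these samples.

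Crt1 binds X-box elements in the promoters of the ribonucleotide reductase genes RNR2, RNR3 and RNR4, of HUG1 and of its own gene, and recruits the corepressor Tup1-Cyc8. On DNA damage the kinases Mec1 and Tel1 activate Rad53, Rad53 activates Dun1, and phosphorylated Crt1 leaves the DNA, so that the repressed genes are transcribed. The 6 genes have other roles. ATR2 encodes a transporter of the major facilitator superfamily related to the drug and boron exporter Atr1. PUT4 encodes the high-affinity proline permease. AMF1 encodes a low-affinity ammonium transporter of the major facilitator superfamily. GUP2 encodes a membrane protein related to Gup1, which acts in remodelling of membrane-anchored proteins. YPR015C encodes a zinc-finger protein, and YDL085C-A a small protein with no role given here.

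Values are given as the log2 ratio of treated to untreated RNA within a strain, so a value of 1 is a doubling and a value below 0 means less RNA after MMS. A ratio of this kind does not tell a lower level after MMS from a higher level before it, and in whole cultures fewer cells with a transcript cannot be told apart from less of it per cell. ATR2 had -1.20, -0.84, -1.15 and -0.13 on the 4 crt1 arrays, against 1.69, 0.77, 2.06 and 0.99 on the 4 wild-type arrays. YPR015C had 0.17, 0.17, -0.02 and 0.07 on the crt1 arrays, against 1.24, 1.33, 2.05 and 1.65 on the wild-type arrays. Both genes lay well above 0 on every wild-type array and near or below 0 on the crt1 arrays, and no crt1 array reached a wild-type one.

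PUT4 was a different case, since it lay below 0 in wild type as well. It had -2.12, -2.12, -1.38 and -2.22 on the crt1 arrays, against -0.06, -1.33, -0.16 and -0.39 on the wild-type arrays. The crt1 and wild-type arrays of PUT4 did not overlap, but the highest crt1 array and the lowest wild-type array lay close together. GUP2 lay between -1.32 and -0.68 on the crt1 arrays, against 0.14 to 0.44 in wild type. AMF1 lay between -1.25 and -0.14 in crt1, against -0.31 to 0.71 in wild type, and its arrays overlapped. YDL085C-A lay between -1.24 and -0.36 in crt1, against 0.02 to 0.86 in wild type.

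ATR2 and YPR015C were thus the members with a clear induction in wild type. The other 4 genes had crt1 means of -0.77 ± 0.10 (AMF1), -0.61 ± 0.27 (YDL085C-A), -0.91 ± 0.13 (GUP2) and -1.96 ± 0.22 (PUT4) (SD, n = 2). Their wild-type means were 0.36 ± 0.29 (AMF1), 0.32 ± 0.17 (YDL085C-A), 0.30 ± 0.01 (GUP2) and -0.49 ± 0.29 (PUT4). In crt1 these 4 genes and ATR2, at -0.83 ± 0.27 there, lay below 0, whereas YPR015C lay at 0.10 ± 0.10. RNR3, by contrast, had -0.04 in crt1 and 4.24 in wild type, and HUG1 had -0.03 in crt1 and 4.07 in wild type.

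The difference between crt1 and wild type was -2.21 for ATR2, -1.48 for PUT4, -1.47 for YPR015C, -1.20 for GUP2, -1.13 for AMF1 and -0.93 for YDL085C-A. In a limma fit over all 13 strains, 14 of 5594 genes, or 0.25%, were lower in crt1 at a Benjamini-Hochberg adjusted p under 0.05, the threshold for calling a gene throughout. Since this contrast chose the 6 genes, their place among the 14 is fixed by the choice. The 14 also hold RNR2, RNR3, RNR4, HUG1 and RFX1, and IRC19 (-0.93), FIS1 (-0.69) and FSH3 (-0.56), which are not among the 6. RFX1 is itself the gene deleted in crt1, so its values there (-0.36 to -0.05 by array) are not a response of an intact gene. Just outside the threshold lay IMG2 (-0.50), YJL028W (-0.73) and RAD16 (-0.50). The value of YDL085C-A depended on the dye, at -1.37 with MMS in Cy5 and -0.50 with MMS in Cy3. Without the crt1 replicate 2 array with MMS in Cy5 the differences were -2.46 (ATR2), -1.69 (PUT4), -1.50 (YPR015C), -1.36 (GUP2), -1.41 (AMF1) and -0.71 (YDL085C-A). No slide held both crt1 and wild type. On the slide that held crt1 replicate 1 and sml1 replicate 1 the difference between them was -2.60 for ATR2, -1.78 for PUT4, -1.52 for YPR015C, -1.18 for AMF1, -0.97 for GUP2 and -0.52 for YDL085C-A.

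**Figure D1:**
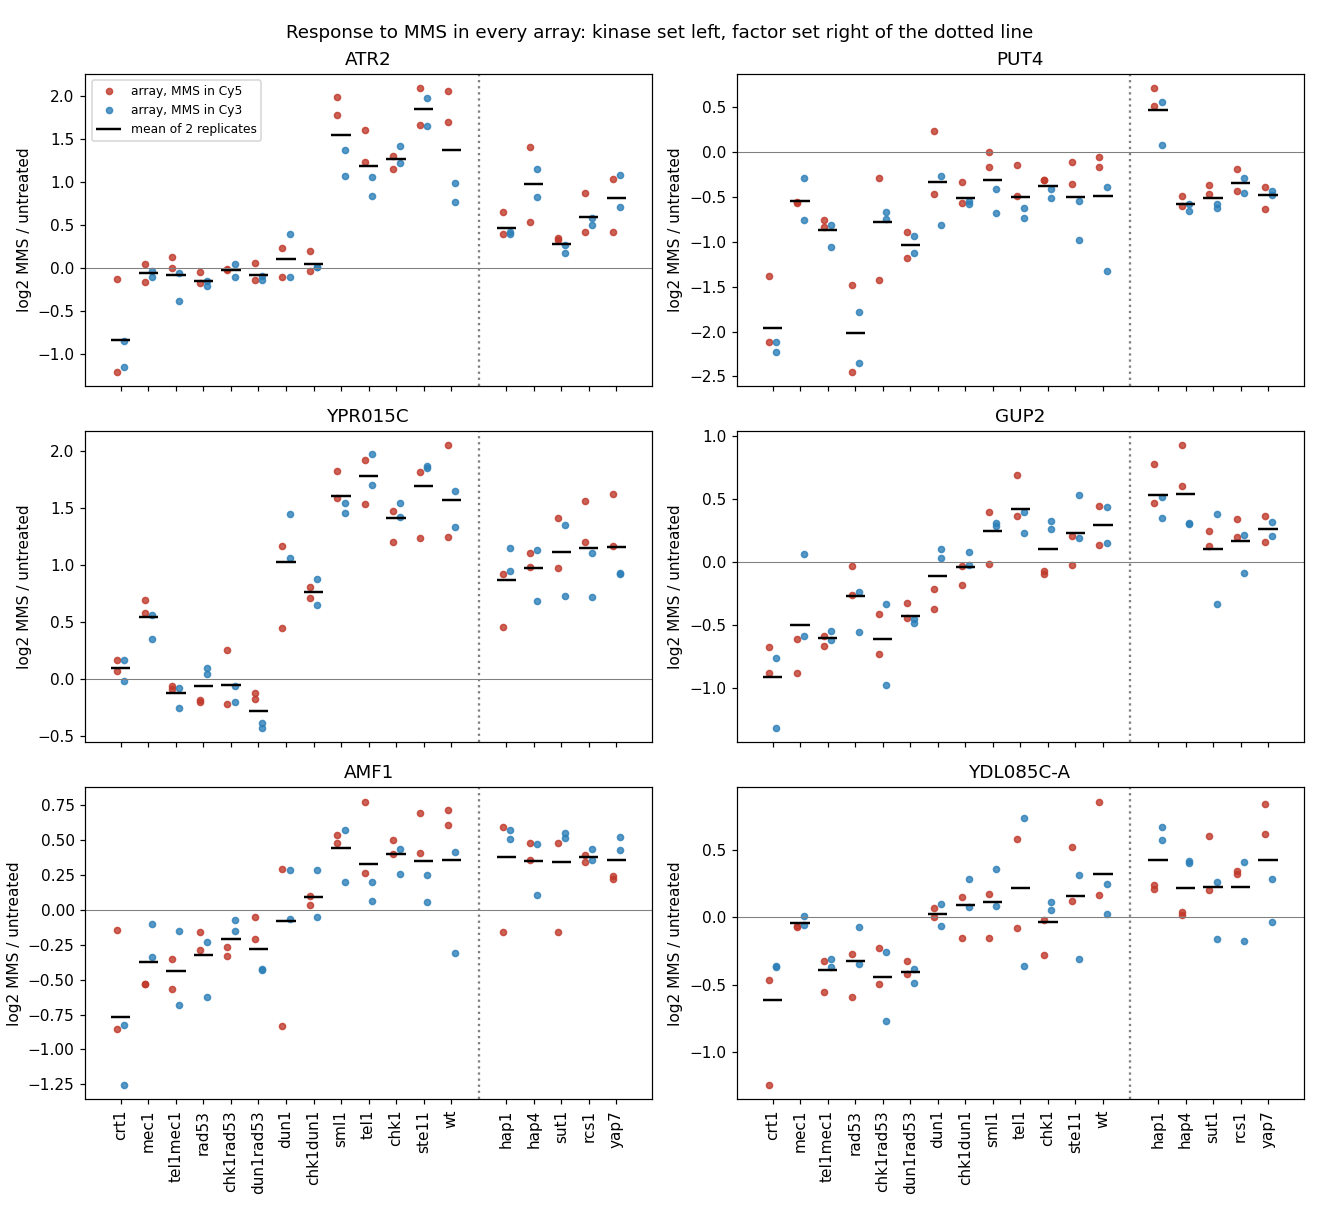
Log2 of MMS over untreated for each of the 6 genes on every array, by strain, with crt1 at the left and wild type at the right of the kinase set, and the factor set to the right of the dotted line. Points are arrays coloured by the dye that carried the MMS sample, and bars are means of 2 replicates. ATR2 and YPR015C are high in sml1, tel1, chk1, ste11 and wild type, while PUT4 is lowest in rad53 (-2.02) and crt1 (-1.96) and lies above 0 in hap1 (0.47).

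Over all genes, an array's correlation with the mean of the other 3 arrays of its strain was between 0.460 and 0.930 in the kinase set (median 0.842) and between 0.788 and 0.915 in the factor set. The lowest were wild-type replicate 1 with MMS in Cy3 (0.460), crt1 replicate 2 with MMS in Cy5 (0.498) and ste11 replicate 2 with MMS in Cy5 (0.50). One array went against its label: the deleted gene DUN1 had a log2 ratio of 2.71 in the second replicate labelled dun1, where Cy5 marked the MMS sample, while the other 3 dun1 arrays lay between -0.24 and -0.11. Over all strains, the deleted genes elsewhere lay between -1.345 and 0.37. The lowest was CHK1 on chk1 replicate 1 with MMS in Cy3, and CHK1 had -0.70 on chk1 replicate 2 with MMS in Cy3. On the dun1 array that went against its label AMF1 had -0.83, YPR015C 0.44 and PUT4 0.24. Results for the arrays labelled dun1 are therefore also given without it, together with mec1 replicate 1 with MMS in Cy5 and chk1rad53 replicate 1 with MMS in Cy3, which an earlier account of these data set apart.

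To see where the 6 genes depend on the kinases, each of 7 strains lacking MEC1, RAD53 or DUN1 was set against the mean of sml1, tel1, chk1 and ste11, in a fit that left out crt1 and wild type. In these comparisons 31 of the 42 values (6 genes in 7 strains) were called lower and the other 11 were not called. By strain, 4 genes were called lower in mec1, where 3.25% of all genes were, 5 in tel1mec1 (13.3%), 6 in rad53 (18.5%), 5 in chk1rad53 (13.3%), 6 in dun1rad53 (14.2%), 3 in the arrays labelled dun1 (1.45%) and 2 in chk1dun1 (1.89%). ATR2 and YPR015C were called in 7 of 7 strains, AMF1 in 6, GUP2 in 5, YDL085C-A in 4 and PUT4 in 2.

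ATR2, the transporter gene, lost its response in all 7 strains. Its replicates lay between -0.16 and 0.15 in the 7 strains, against 1.04 to 2.03 in sml1, tel1, chk1 and ste11, and the 2 ranges were far apart. In sml1 it rose 2.93-fold and in ste11 3.60-fold. The differences ran from -1.36 in the arrays labelled dun1 (SE 0.10, adjusted p = 1.88e-07) to -1.61 in rad53 (SE 0.10, adjusted p = 7.38e-09). Against 0, the ATR2 response was called in none of the 7 strains, with means from -0.15 in rad53 to 0.11 in dun1. All 7 calls held under every alternative run, among them leaving out any 1 replicate, a single dye, and the 3 arrays named above, without which the difference in dun1 was -1.23. On the slide that held dun1 replicate 1 and ste11 replicate 1 the difference was -1.97. On a slide with arrays of dun1 and sml1, with dyes not matched, it was -0.92. The dun1 arrays of that slide were replicate 2 and include the array that went against its label.

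YPR015C, the zinc-finger gene, was graded among the strains. It had 1.17, 1.06, 0.44 and 1.45 on the arrays labelled dun1, 0.58, 0.56, 0.69 and 0.35 on the mec1 arrays and -0.20, 0.10, -0.18 and 0.05 on the rad53 arrays, against 1.21 to 1.98 on the 16 arrays of sml1, tel1, chk1 and ste11. The rad53 arrays lay around 0, the mec1 arrays above them all, and the dun1 arrays reached into the range of the 4 other strains. The difference was -1.90 in dun1rad53 (adjusted p = 1.27e-09), -1.74 in tel1mec1 (adjusted p = 5.20e-09), -1.68 in rad53 (adjusted p = 6.92e-09) and -1.68 in chk1rad53 (adjusted p = 9.50e-09). It was -1.08 in mec1 (adjusted p = 3.47e-06), -0.86 in chk1dun1 (adjusted p = 7.00e-05) and -0.59 in the arrays labelled dun1 (adjusted p = 0.00444). The call in dun1 held in 16 of 21 alternatives. It was lost without the 3 arrays named above (-0.34, adjusted p = 0.0864) and with either dye alone. Arrays scaled to one spread (-0.32) and leaving out dun1 replicate 2 (-0.51) lost it as well. Yet YPR015C still rose in dun1, by 1.03 ± 0.12 (SD, n = 2). This mean includes the array that went against its label (0.44). Over the alternatives the response in dun1 ran from 0.81 to 1.28.

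The ammonium transporter gene AMF1 and GUP2 had means below 0 in the 3 strains without RAD53 and in both strains without MEC1, against small positive means in sml1, tel1, chk1 and ste11. AMF1 had -0.29, -0.23, -0.16 and -0.63 on the rad53 arrays, against 0.06 to 0.78 on the arrays of sml1, tel1, chk1 and ste11. Every one of those 16 arrays lay above 0 and every rad53 array below it. The AMF1 difference was -0.82 in tel1mec1 (adjusted p = 4.64e-05), -0.76 in mec1 (adjusted p = 0.000391), -0.71 in rad53 (adjusted p = 0.000182), -0.66 in dun1rad53 and -0.59 in chk1rad53. In the arrays labelled dun1 it was -0.46 (adjusted p = 0.0440). This call was lost in most alternatives, including the one without the 3 arrays (-0.18, adjusted p = 0.369). With MMS in Cy3 only, the AMF1 calls in mec1 (-0.475, adjusted p = 0.160) and chk1rad53 (-0.37, adjusted p = 0.149) were lost. With MMS in Cy5 only, the AMF1 call in dun1rad53 was lost (-0.64, adjusted p = 0.0563).

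GUP2 had replicate values of -0.73 and -0.27 in mec1 and of -0.60 and -0.60 in tel1mec1, against 0.09 to 0.46 in sml1, tel1, chk1 and ste11. It was lower in chk1rad53 by -0.86 (adjusted p = 4.48e-05), in tel1mec1 by -0.85 (adjusted p = 3.65e-05), in mec1 by -0.75 (adjusted p = 0.000462), in dun1rad53 by -0.68 (adjusted p = 0.000422) and in rad53 by -0.52 (adjusted p = 0.00220). The call in mec1 was lost without mec1 replicate 1 (-0.52, adjusted p = 0.0551). With MMS in Cy3 only, the GUP2 call in mec1 was lost as well (-0.58, adjusted p = 0.0849). With MMS in Cy5 only, the GUP2 call in rad53 was lost (-0.33, adjusted p = 0.135). GUP2 was not called in the arrays labelled dun1 or in chk1dun1, where its means were -0.11 and -0.04.

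YDL085C-A was called lower in the 3 strains without RAD53 and in tel1mec1, and not in mec1, dun1 or chk1dun1. Its replicates lay between -0.50 and -0.31 in the 3 strains without RAD53, against -0.11 to 0.33 in sml1, tel1, chk1 and ste11. The difference was -0.56 in chk1rad53 (adjusted p = 5.60e-05), -0.52 in dun1rad53, -0.51 in tel1mec1 and -0.44 in rad53 (adjusted p = 0.000354). The mec1 mean was -0.04, and its single arrays in tel1 spread from -0.36 to 0.74. With either dye alone, the YDL085C-A calls in tel1mec1, chk1rad53 and dun1rad53 were lost. The call in rad53 was lost with MMS in Cy3 only (-0.33, adjusted p = 0.272).

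PUT4, the proline permease gene, was set apart by rad53. It had -2.45, -2.35, -1.48 and -1.78 on the rad53 arrays, against -0.98 to -0.0004 on the 16 arrays of sml1, tel1, chk1 and ste11. All 4 rad53 arrays lay below all 16. PUT4 fell to 0.247 of the untreated level in rad53, and the difference from the 4 strains was -1.59 (SE 0.18, adjusted p = 6.10e-06). In dun1rad53 it was -0.61 (adjusted p = 0.0175), a call that was lost when either dun1rad53 replicate was left out. The other 5 differences were not called and ran from -0.44 in tel1mec1 (adjusted p = 0.0797, 95% interval -0.81 to -0.07) to 0.09 in dun1 (interval -0.28 to 0.47). Among them, the value in chk1rad53 depended on the replicate. It was -0.36 (adjusted p = 0.154), but -0.66 without chk1rad53 replicate 2 (adjusted p = 0.0488), -0.06 without replicate 1 (adjusted p = 0.908) and -0.53 without the 3 arrays (adjusted p = 0.0486).

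**Figure D2:**
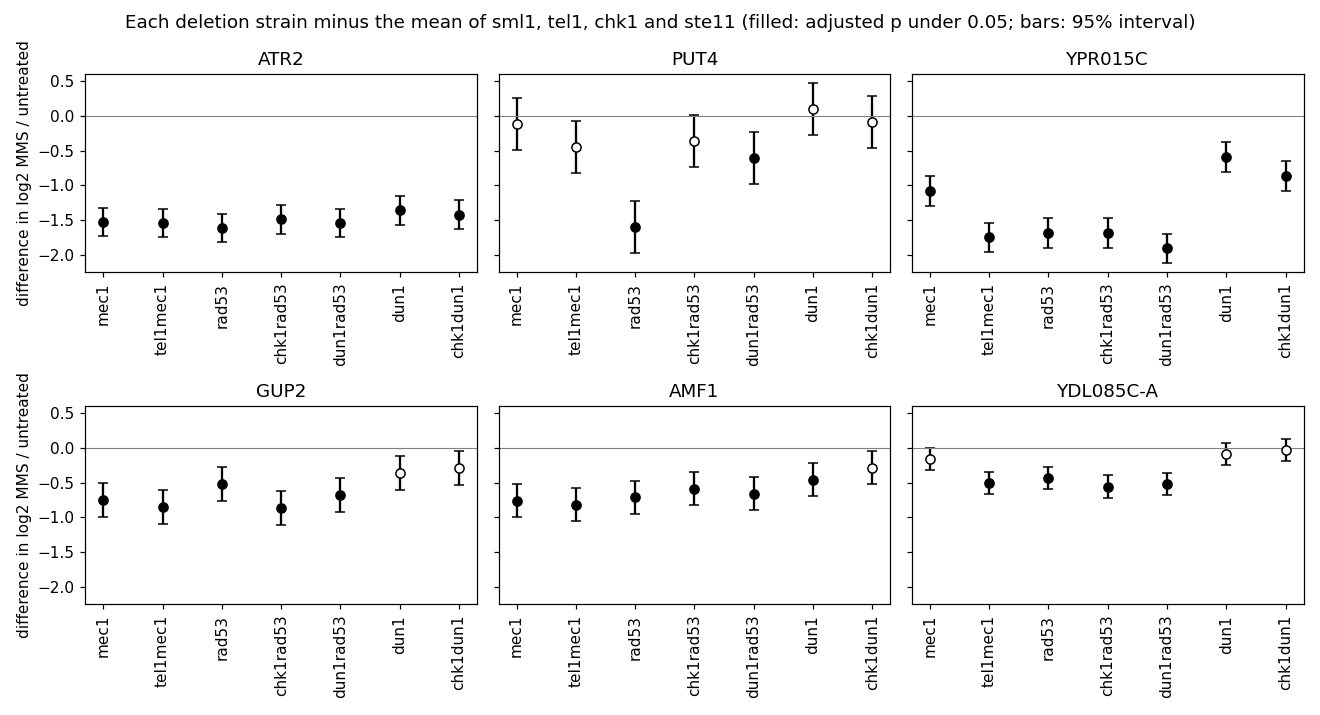
Difference in log2 MMS over untreated between each of 7 deletion strains and the mean of sml1, tel1, chk1 and ste11, 1 panel per gene. Points are estimates of the limma fit with 95% intervals, filled where the adjusted p was under 0.05. ATR2 lies between -1.61 and -1.36 in all 7 strains, YPR015C between -1.90 and -0.59, and PUT4 stands out in rad53 at -1.59.

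Direct contrasts between double and single deletions, and between mec1 and rad53, gave 2 values called higher and 15 called lower of 54. Against tel1, 5 of the 6 genes were lower in tel1mec1, all but PUT4, where 11.4% of all genes were called in either direction. Against chk1, the same 5 genes were lower in chk1rad53 (12.4% of all genes called). Not all of these calls were firm. Those in chk1rad53 minus chk1 held in 8 of 13 alternatives for AMF1 and for YDL085C-A, and in 11 for GUP2. In tel1mec1 minus tel1, the YDL085C-A call held in 11 of 13 alternatives and the AMF1 call in 12. ATR2 had -0.08 ± 0.07 in tel1mec1 and 1.19 ± 0.21 in tel1, and -0.02 ± 0.04 in chk1rad53 and 1.27 ± 0.12 in chk1 (SD, n = 2). Both ATR2 differences, -1.26 (adjusted p = 5.42e-06) and -1.29 (adjusted p = 3.70e-06), held under every alternative.

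Loss of TEL1 on top of MEC1 changed the response of 1 of the 6 genes (2.95% of all genes called). YPR015C had replicates of -0.16 and -0.08 in tel1mec1 and of 0.57 and 0.52 in mec1, which did not overlap. The difference was -0.67 (adjusted p = 0.00716) and lost its call when mec1 replicate 1 or either tel1mec1 replicate was left out. Within the slide that held arrays of both strains, with dyes not matched, it was -0.70. ATR2 differed by -0.02 between these strains, with no call.

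Loss of RAD53 on top of DUN1 lowered 2 genes (2.72% of all genes called). YPR015C had -0.31 and -0.25 in the 2 replicates of dun1rad53 and 1.11 and 0.95 in the arrays labelled dun1, a difference of -1.31 (adjusted p = 1.69e-05). YDL085C-A differed by -0.43 (adjusted p = 0.0197), a call lost when any 1 replicate of either strain was left out. AMF1 differed by -0.20 and was not called (adjusted p = 0.559). Without the 3 arrays the differences were -1.56 for YPR015C (adjusted p = 8.24e-07), -0.40 for YDL085C-A (adjusted p = 0.0235) and -0.48 for AMF1 (adjusted p = 0.0466), which was then called as well. Loss of DUN1 on top of CHK1 lowered ATR2 by -1.22 (adjusted p = 2.35e-05) and YPR015C by -0.65 (adjusted p = 0.0163), with 0.876% of all genes called. The YPR015C call was lost when either replicate of chk1dun1 or of chk1 was left out.

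In 3 contrasts limma called 0 of 5594 genes (0%). These were chk1rad53 minus rad53, with 413 genes at an unadjusted p under 0.05, dun1rad53 minus rad53, with 193, and chk1dun1 minus dun1, with 232. Of the 6 genes, 2, 1 and 1 had an unadjusted p under 0.05 in these contrasts. PUT4 was among them in the first and the second: it had -1.08 and -0.48 in chk1rad53, -1.15 and -0.91 in dun1rad53 and -2.40 and -1.63 in rad53. The difference from rad53 was 1.23 in chk1rad53 (adjusted p = 0.105) and 0.98 in dun1rad53 (adjusted p = 0.440).

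Between mec1 and rad53, PUT4 and YPR015C were higher in mec1 (9.9% of all genes called in either direction). PUT4 had -0.66 and -0.42 in the mec1 replicates and -2.40 and -1.63 in the rad53 replicates, a difference of 1.47 (adjusted p = 0.00186) that held under every alternative. Arrays of both strains shared 2 slides, with dyes not matched, and PUT4 differed there by 1.84 and 1.20. YPR015C differed by 0.60 (adjusted p = 0.00926), and this call was lost without mec1 replicate 1 or rad53 replicate 2.

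Responses were also tested against 0 in each strain. In the 11 strains of the kinase set that did not choose the genes, 17 of 66 values were called higher and 22 lower. The background was high, since MMS changed much of the transcriptome. The number of the 6 genes called was 3 in sml1 (54.5% of all genes), 6 in tel1 (50.3%), 3 in chk1 (52.0%), 4 in ste11 (54.3%), 4 in mec1 (46.5%), 4 in tel1mec1 (34.6%), 4 in rad53 (38.1%), 3 in chk1rad53 (22.7%), 5 in dun1rad53 (37.1%), 1 in dun1 (43.9%) and 2 in chk1dun1 (41.6%). ATR2 rose in the 4 strains sml1, tel1, chk1 and ste11 and was called in none of the 7 others. YPR015C rose in 7 strains and fell in dun1rad53. PUT4 was called lower in 8 of the 11 strains and higher in none. In dun1 PUT4 had -0.33 and was not called (adjusted p = 0.104), but was called without the 3 arrays (-0.45, adjusted p = 0.0390). AMF1 was called higher in 4 strains and lower in 4, GUP2 higher in 1 and lower in 5, and YDL085C-A higher in 1 and lower in 4.

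The factor set gave the same measure in strains with the checkpoint kinases intact. There 20 of 30 values were called higher and 4 lower: 6 genes in hap1 (57.1% of all genes), 5 in hap4 (55.5%), 3 in sut1 (47.2%), 4 in rcs1 (56.9%) and 6 in yap7 (55.6%). YPR015C had means of 0.87 in hap1, 0.97 in hap4, 1.11 in sut1, 1.15 in rcs1 and 1.16 in yap7. ATR2 had replicates of 1.28 and 0.68 in hap4, 0.57 and 1.06 in yap7, 0.50 and 0.69 in rcs1, 0.41 and 0.52 in hap1 and 0.31 and 0.26 in sut1, where it was not called (adjusted p = 0.120). AMF1 had strain means from 0.35 to 0.38 and was called in all 5 strains, but its replicates were 0.58 and 0.18 in hap1 and 0.20 and 0.50 in sut1. Without hap1 replicate 1 the AMF1 call in hap1 was lost (0.18, adjusted p = 0.209). GUP2 was called in hap1, hap4 and yap7, and YDL085C-A in hap1 and yap7. The 2 tables were normalized separately and differ in array design and RNA preparation, so no level was set across them.

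PUT4 was the exception in the factor set. It had 0.52, 0.08, 0.71 and 0.57 on the hap1 arrays, against values from -0.65 to -0.19 on the 16 arrays of hap4, sut1, rcs1 and yap7. Every hap1 array lay above 0 and every other array below it. The difference between hap1 and the mean of the other 4 strains was 0.95 (95% interval 0.73 to 1.16, adjusted p = 0.000553, 1.61% of all genes called), and it held under every alternative. HAP1 encodes an activator that responds to heme. In hap4 (2.38% of all genes called), sut1 (0.268%), rcs1 (0.268%) and yap7 (0.0536%), 0 of the 6 genes differed from the other 4 strains in the limma fit, with 3, 3, 0 and 1 of the genes at an unadjusted p under 0.05.

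The order of the strains differed between the genes. For ATR2, the replicates of crt1 lay below those of every other strain of the kinase set, and a gap separated tel1, the lowest of the 5 strains with a response, from dun1. Among those 5, ste11 lay apart from sml1 and sml1 from wild type, while wild type, chk1 and tel1 overlapped in sequence. Between the 7 strains from dun1 to rad53 no neighbours but tel1mec1 and rad53 lay apart. For YPR015C the order from the top was tel1, ste11, sml1, wild type and chk1, whose neighbours overlapped. Then came dun1, chk1dun1 and mec1, each apart from its neighbours, and then crt1, which overlapped with chk1rad53. The gap between chk1 and dun1 rests on the array that went against its label (0.44). The other array of dun1 replicate 2 had 1.446, between the chk1 replicates of 1.376 and 1.450. For PUT4 the 10 highest strains overlapped in sequence, and crt1 and rad53 overlapped at the bottom. For GUP2, AMF1 and YDL085C-A crt1 had the lowest mean of the kinase set. Its replicates lay apart from those of the next strain, tel1mec1, for AMF1. For GUP2 and YDL085C-A they overlapped with those of chk1rad53. All these genes were chosen by their values on the crt1 and wild-type arrays. A low place of crt1 in the order is thus partly fixed by the choice and supports nothing about them.

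Of the 5 known targets of Crt1 (RNR2, RNR3, RNR4, HUG1 and RFX1), 3 were called higher in mec1, 3 in dun1 and 4 in chk1dun1. ATR2 was called in none of these strains. In either direction, 46.5%, 43.9% and 41.6% of all genes were called there, so the counts alone say little. In tel1mec1, rad53, chk1rad53 and dun1rad53, 0 targets were called higher and 2, 3, 2 and 3 lower. There 34.6%, 38.1%, 22.7% and 37.1% of all genes were called in either direction. RNR3 rose by 1.00 in mec1 (adjusted p = 1.80e-06), by 1.29 in dun1 (adjusted p = 1.19e-07) and by 0.97 in chk1dun1, where ATR2 had -0.06, 0.11 and 0.05. HUG1, which encodes a small inhibitor of ribonucleotide reductase, rose by 1.39 in mec1 and by 1.49 in dun1. These rises were partial: in sml1, tel1, chk1 and ste11 the strain means were 3.82 to 4.38 for RNR3 and 4.04 to 4.96 for HUG1. Against the mean of those 4 strains, 3 targets were called lower in mec1, 2 in dun1 and 2 in chk1dun1, and 0 higher. There 3.25%, 1.45% and 1.89% of all genes were called lower. The dun1 values and the dun1 counts of these targets include the array that went against its label. They were not recomputed without it. In rad53 RNR3 and HUG1 fell, by 0.59 and 0.56 on the log2 scale. Across the 11 strains the means of ATR2 correlated with those of RNR3 at r = 0.948, those of YPR015C at 0.961, AMF1 at 0.941, GUP2 at 0.884, YDL085C-A at 0.827 and PUT4 at 0.644. Of the 5 targets, RNR3 gave the highest r for ATR2, YPR015C, AMF1 and GUP2. RFX1 gave their lowest, at 0.798, 0.915, 0.865 and 0.765. For YDL085C-A r ran from 0.821 with HUG1 to 0.942 with RNR2, and for PUT4 from 0.639 with HUG1 to 0.820 with RFX1. Among the 6 genes r ran from 0.430 for PUT4 with GUP2 to 0.934 for YPR015C with YDL085C-A. These points share arrays, and r is a description. For ATR2, YPR015C, GUP2 and AMF1 the 7 strains lacking MEC1, RAD53 or DUN1 form one end of the relation, while for PUT4 and YDL085C-A dun1 lay among the 4 other strains. TUP1 and CYC8, which encode the corepressor, differed from sml1, tel1, chk1 and ste11 by -0.16 to 0.18 in the 7 strains, with adjusted p of 0.231 or higher.

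Relatives of the 6 genes are named here by textbook family. ATR1 rose in each of the 11 strains, with means from 1.59 in chk1rad53 to 2.39 in chk1dun1 among the 7 strains and from 1.30 in ste11 to 2.12 in chk1 among the other 4. In rad53 it differed from those 4 by -0.02 (adjusted p = 0.968), where ATR2 differed by -1.61. GUP1 differed by -0.21 in rad53 (adjusted p = 0.148) and CMR3, another zinc-finger gene, by 0.15 (adjusted p = 0.128). PUT1, PUT2 and PUT3, which encode the enzymes of proline breakdown and their activator, had differences of -0.18, 0.03 and -0.08 in rad53, none called, against -1.59 for PUT4. In dun1rad53 PUT1 was called lower (-0.28, adjusted p = 0.0302), where PUT4 differed by -0.61, and PUT1 was also lower in tel1mec1 (-0.28, adjusted p = 0.0301).

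Wider families were counted in the same comparison of rad53 with sml1, tel1, chk1 and ste11, where the background was 16.7% of all genes higher and 18.5% lower, with a median of 0.01. Of 18 other amino acid permeases, 2 were higher and 4 lower (median -0.12). The 8 transporters of the family that holds Atr1 had a median of -0.01. Of 6 ammonium and acetate transporters, 1 was higher and 1 lower (median -0.24). Of 20 genes under nitrogen catabolite repression, the regime to which PUT4 belongs, 1 was higher and 8 lower (median -0.29). Of 12 genes of glycerol handling, 1 was higher and 6 lower (median -0.24). All 5 genes RNR2, RNR3, RNR4, HUG1 and RFX1 were lower (median -1.99).

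Of the 12 genes beside the 6 on their chromosomes in the RefSeq annotation R64, 10 were measured. Their differences between crt1 and wild type ran from -0.31 to 0.09, with adjusted p of 0.445 or higher, where 0.25% of all genes were called lower. In rad53, 4 of them were lower than in sml1, tel1, chk1 and ste11, where 18.5% of all genes were: NDE2 beside YDL085C-A (-0.999, adjusted p = 7.0e-05), CIN1 beside PUT4 (-0.43), RDR1 beside AMF1 (-0.37) and YDL086W, the other neighbour of YDL085C-A (-0.35). NDE2, which encodes a mitochondrial NADH dehydrogenase, had a difference of 0.07 between crt1 and wild type, where YDL085C-A had -0.93.

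**Figure D3:**
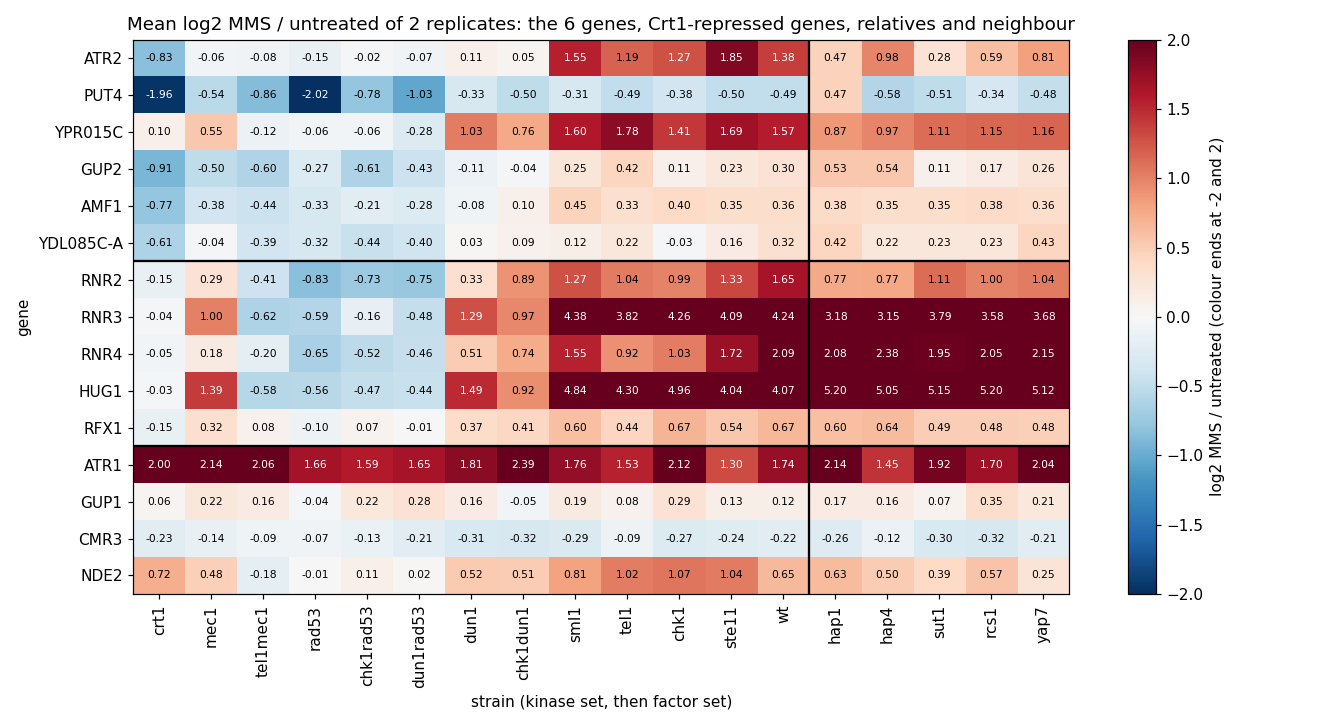
Mean log2 MMS over untreated (2 replicates) of the 6 genes, of RNR2, RNR3, RNR4, HUG1 and RFX1, and of ATR1, GUP1, CMR3 and NDE2 in the 18 strains, with crt1 first and wild type last in the kinase set. The number in each cell is the value and the colour ends at -2 and 2. ATR1 stays high in rad53 (1.66), where ATR2 is at -0.15. RNR3 keeps a rise of 1.29 in dun1, against 3.82 to 4.38 in sml1, tel1, chk1 and ste11. ATR2 is at 0.11 in dun1, against 1.19 to 1.85 in those 4 strains. The dun1 means include the array that went against its label.

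The 3 genes most like each of the 6 were found by Pearson's r over the means of the 11 strains, which share arrays, as a description. For ATR2 they were FMO1 (0.954), TSA2 (0.952) and YKL107W (0.952). For PUT4 they were PMI40 (0.968), NTE1 (0.940) and BUB3 (0.931). For YPR015C they were SPS22 (0.990), the hexose transporter gene HXT5 (0.981) and DIA3 (0.977). For GUP2 they were POL31 (0.970), RGM1 (0.962) and PES4 (0.947). For AMF1 they were RAD53 (0.974), SWE1 (0.964) and THI11 (0.961), whose copies one probe may not separate, and RAD53 is itself deleted in 3 of the 11 strains. For YDL085C-A they were MLO1 (0.967), ERV2 (0.954) and XYL2 (0.954). None of these 18 genes was called between crt1 and wild type, where 14 of 5594 genes were called lower and 1 higher. With so few calls over all genes, their absence from a short list says little. The differences of the 18 genes ran from -0.22 for RAD53 to 0.42 for YKL107W.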

How the data were processed

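Each of 72 arrays compared MMS-treated with untreated RNA of one strain. The values the authors deposited are normalized log ratios, 1 for a probe on an array, and were read as log2 with Cy5 in the numerator. Per the submitters' processing notes limma was used, without a version, and neither the log base nor the centring is stated. Arrays that carried MMS in the Cy3 channel had their sign turned, because dye-swapped arrays of a strain correlated at -0.876 to -0.174 (kinase set) and -0.847 to -0.633 (factor set) as deposited. Array medians lay between -0.018 and 0.021.

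Of 6269 and 6256 probes, 5620 and 5609 had 1 gene symbol and the others entered no test. Probes of one gene were averaged. The 2 arrays of a strain with one replicate number were averaged, which gives n = 2. Strain means were fitted with limma 3.58.1 in R 4.3.3, for 11 strains of the kinase set (all but crt1 and wild type; 11 residual and 5.92 prior degrees of freedom) and apart for the 5 factor strains (5 and 4.80), with Benjamini-Hochberg adjustment over all genes of a contrast. Over all genes, the median 95% interval reached 0.208 to either side for a difference in the kinase set and 0.171 in the factor set. Precision is limited by how many arrays there are. The fits were tested on simulated data.

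The 6 genes, the gene lists, the 4 strains used for comparison and the 3 arrays left out in one alternative were chosen with earlier results of these data known. Named genes are the 6, the deleted genes, list members, the neighbours, and the 3 genes most like each of the 6. Replicate numbers did not pair the strains: the differences between replicates of 55 pairs of strains correlated at -0.449 to 0.428, with 11 pairs over 0.1. Alternatives covered the strains in the fit, the slide, the replicate block, scaling, centring, single dyes, moderation and leaving out replicates. Promoter sequences were not used here.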

Additional observations from a re-analysis of the deposited data

Results flagged for a closer look

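Of 108 groups of 4 arrays (6 genes in 18 strains), 10 held an array far from the other 3, measured as its gap to the nearest array over the whole range. Chance gives about 1 in 20 such groups. For ATR2 this was hap1 replicate 2 with MMS in Cy5 at 0.65. For PUT4 they were crt1 replicate 2 with MMS in Cy5 at -1.38 and chk1dun1 replicate 2 with MMS in Cy5 at -0.34. For YPR015C they were ste11 replicate 2 with MMS in Cy5 at 1.24 and tel1mec1 replicate 1 with MMS in Cy3 at -0.26. For AMF1 they were hap1 replicate 2 and sut1 replicate 1, both with MMS in Cy5 and both at -0.16. For YDL085C-A they were crt1 replicate 2 with MMS in Cy5 at -1.24, rcs1 replicate 2 with MMS in Cy3 at -0.18 and mec1 replicate 2 with MMS in Cy3 at 0.01.

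Strains differed in their response to MMS by the test of the difference itself in 49 values. For ATR2, the difference from the mean of sml1, tel1, chk1 and ste11 was -1.52 (mec1), -1.54 (tel1mec1), -1.61 (rad53), -1.48 (chk1rad53), -1.54 (dun1rad53), -1.36 (dun1) and -1.42 (chk1dun1). For YPR015C, the difference from the mean of sml1, tel1, chk1 and ste11 was -1.08 (mec1), -1.74 (tel1mec1), -1.68 (rad53), -1.68 (chk1rad53), -1.90 (dun1rad53), -0.59 (dun1) and -0.86 (chk1dun1). For AMF1, the difference from the mean of sml1, tel1, chk1 and ste11 was -0.76 (mec1), -0.82 (tel1mec1), -0.71 (rad53), -0.59 (chk1rad53), -0.66 (dun1rad53) and -0.46 (dun1). For GUP2, the difference from the mean of sml1, tel1, chk1 and ste11 was -0.75 (mec1), -0.85 (tel1mec1), -0.52 (rad53), -0.86 (chk1rad53) and -0.68 (dun1rad53). For YDL085C-A, the difference from the mean of sml1, tel1, chk1 and ste11 was -0.51 (tel1mec1), -0.44 (rad53), -0.56 (chk1rad53) and -0.52 (dun1rad53). For PUT4, the difference from the mean of sml1, tel1, chk1 and ste11 was -1.59 (rad53) and -0.61 (dun1rad53).

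Between double and single deletions, and between mec1 and rad53, the differences were as follows. In tel1mec1 minus mec1 the difference was -0.67 (YPR015C). In tel1mec1 minus tel1 the difference was -1.26 (ATR2), -1.90 (YPR015C), -1.03 (GUP2), -0.76 (AMF1) and -0.61 (YDL085C-A). In chk1rad53 minus chk1 the difference was -1.29 (ATR2), -1.47 (YPR015C), -0.72 (GUP2), -0.60 (AMF1) and -0.41 (YDL085C-A). In dun1rad53 minus dun1 the difference was -1.31 (YPR015C) and -0.43 (YDL085C-A). In chk1dun1 minus chk1 the difference was -1.22 (ATR2) and -0.65 (YPR015C). In mec1 minus rad53 the difference was 1.47 (PUT4) and 0.60 (YPR015C). In the factor set, PUT4 in hap1 minus the mean of hap4, sut1, rcs1 and yap7 was 0.95.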

How the results depend on the processing

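The counts of calls for the 6 genes were recomputed under each alternative, and no direction was reversed. Responses called lower in the 11 strains numbered 22, and 8 with only the arrays with MMS in Cy5. In the contrasts between double and single deletions, 2 values were called higher, 4 with the slide as a random block (the added calls are PUT4 in chk1rad53 and in dun1rad53 minus rad53, at 1.24 and 1.00), 1 with MMS in Cy5 only, and 1 to 3 with 1 replicate left out (1 without mec1 replicate 1). In the same contrasts 15 values were called lower, 7 with MMS in Cy5 only, 8 with MMS in Cy3 only, and 12 to 16 with 1 replicate left out. Differences from the mean of sml1, tel1, chk1 and ste11 called lower numbered 31, between 21 and 31 over all alternatives and 29 to 31 with 1 replicate left out. In the factor set 0 differences were called lower, and 1 without hap1 replicate 1, which was PUT4 in hap4 (-0.41, adjusted p = 0.0479). The alternatives for crt1 minus wild type were chosen after seeing the data and are given as values only. Single-dye settings fit 1 array per replicate in place of 2. The slide block was fitted to single arrays, which counts the dye swaps of one replicate as replicates, with an estimated slide correlation of -0.068.

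The replicate block left the counts at 31 called lower and 22 responses called lower, and gave 3 in place of 2 called higher between double and single deletions. It gave PUT4 a call in tel1mec1 against the 4 strains (-0.44, adjusted p = 0.0389) and in chk1rad53 against rad53 (1.23, adjusted p = 0.0260), and lost AMF1 in dun1 (-0.46, adjusted p = 0.0589). Arrays scaled to one spread lost the call of YPR015C in dun1 (-0.32, adjusted p = 0.379) and moved PUT4 in chk1rad53 to -0.84 (adjusted p = 0.0220). The causes were not tested. No array intensities were used here, so signal over background is not known. The slides of rad53, chk1rad53, dun1rad53, chk1dun1 and mec1 held none of sml1, tel1, chk1 or ste11, so slide and strain cannot be told apart within a slide there.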
